A study of Mus musculus with 4 samples.

Results

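Sim2, Pitx1 and the 6 Iroquois genes Irx1, Irx2, Irx3, Irx4, Irx5 and Irx6 are transcription factor genes, and their 8 rows were taken by gene symbol from the 25819 rows of the deposited expression table. The set was chosen by measured values: Sim2, Irx2 and Pitx1 had fewer FPKM in the E16.5 mutant library than in the E16.5 wild type library, so that difference is described below and nothing is read from it. FPKM is the number of reads scaled to transcript length and to the mapped reads of the library. The study measured RNA from the whole urogenital sinus (UGS), the embryonic tissue from which the prostate and urethra form, in male mouse embryos with and without the T-box factor gene Tbx18. Wild type and Tbx18Gfp/Gfp embryos at E16.5 and at E18.5 made up the 4 libraries, all on a B6C3-F1 hybrid background. The mutant allele has GFP inserted into Tbx18 and was studied as a null allele, so the loss is not limited to the UGS, and the wild type embryos were littermates. RNA of 3 embryos was pooled for each library, so each genotype and stage had 1 library, no replicate spread and no test. An interval given below covers counting error only, at the 95% level.

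SIM2 is a basic helix-loop-helix PAS protein that pairs with ARNT and acts mainly as a repressor, and it is known from the ventral midline of the brain and from developing muscle and breast epithelium. PITX1 is a paired-type homeodomain protein known for specifying the hindlimb and for its role in the pituitary. Iroquois proteins carry a TALE homeodomain, and their genes lie in paired clusters, Irx1, Irx2 and Irx4 in one and Irx3, Irx5 and Irx6 in the other, where neighbours often share parts of their expression.

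For the 3 genes that chose the set, the study listed RT-qPCR primers, and its methods give PrimerBank as the source of primer sequences. They are shown here because they mark the stretch of each transcript that the study's separate assay reads. All 6 primers matched GRCm38 coding sequence exactly. The Irx2 pair lies in exon 2 of the 5 exons of Irx2-201, on the plus strand at chr13:72630590-72630666, and frames 77 bases. The Pitx1 pair lies in exon 1 of the 3 exons of Pitx1-201, on the minus strand at chr13:55830792-55830934, and frames 143 bases. The Sim2 forward primer crosses the junction of exons 9 and 10 of the 11 exons of Sim2-201 on chromosome 16, the reverse primer lies in exon 10, and the pair frames 140 bases. For several genes, the paper reports RT-qPCR results from individual UGS samples that were very close to those of its pooled RNA-Seq. Its primer legend describes these samples as the animals that made up the sequenced pools, so they were not further embryos. The RT-qPCR values were not analysed here.
Irx2 forward: acaccaccggaatgactgg
Irx2 reverse: ggggtcgttgagctggtatg
Pitx1 forward: gccttcaagggaggcatgag
Pitx1 reverse: gattcgctggcggagttctc
Sim2 forward: cacagcaatacagctccttcc
Sim2 reverse: cggcccatataaaaggtcgct

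The promoters of Irx2 and Irx3 are printed to show 1 measured gene from each Iroquois cluster. Each is 300 bases of GRCm38.p6 from RefSeq around the annotated start, which gave promoters for 3 of the 8 members, Irx2, Irx3 and Irx4. Capitals mark the T-box core TCACAC, searched on both strands. It occurred once in the Irx2 promoter (chr13:72628570-72628869, plus strand), at position -65 from the start on the minus strand, and not in those of Irx3 (chr8:91801605-91801904, minus strand) and Irx4.
Irx2 promoter: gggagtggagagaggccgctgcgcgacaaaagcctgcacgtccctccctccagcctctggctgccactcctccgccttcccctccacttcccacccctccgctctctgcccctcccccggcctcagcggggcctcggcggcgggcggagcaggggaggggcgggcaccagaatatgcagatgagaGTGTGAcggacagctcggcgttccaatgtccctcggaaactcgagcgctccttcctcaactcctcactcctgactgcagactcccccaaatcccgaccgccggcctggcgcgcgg
Irx3 promoter: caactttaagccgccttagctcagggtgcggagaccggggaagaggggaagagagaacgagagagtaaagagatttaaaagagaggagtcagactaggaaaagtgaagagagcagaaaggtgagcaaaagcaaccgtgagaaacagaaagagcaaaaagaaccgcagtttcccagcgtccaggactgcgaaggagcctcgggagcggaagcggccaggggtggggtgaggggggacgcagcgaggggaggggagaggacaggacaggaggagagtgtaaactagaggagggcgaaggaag

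The T-box core was present in 14.5% of the 32851 promoters of the table, so 1 match is a description of these letters and not a binding site. The PITX core TAATCC (7.06% of all promoters), the Iroquois palindrome ACANNTGT (7.38%), the SIM and ARNT element TACGTG (3.23%) and the TATA box TATAAA (13.6%), each searched on both strands, had no match in the 3 promoters. The Irx2 promoter had 69.0% GC and 25 CpG, the Irx3 promoter 56.0% and 14 CpG, and the Irx4 promoter 70.7% and 31 CpG, against medians of 52.7% and 7 CpG over all promoters.

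Before the members are compared, the E18.5 wild type library has to be set apart. Its depth, estimated from single reads on olfactory receptor genes, was 29049800 mapped reads, against 52436200 to 63977100 in the other libraries, and its FPKM summed to 375826, against 460392 to 504136. Among genes that reached 1 FPKM in each of the compared libraries, the log2 ratio of mutant to wild type had a median of 0.01 for the earlier stage and 0.29 for the later. In the E18.5 comparison it ran from -0.06 in the lowest of 10 bins of transcript GC content to 0.82 in the highest, and the 8 members had 56.8% to 65.8% GC, more than 84.6% to 99.7% of genes. The members' ratios that use this library are therefore also given relative to the median and after a trend on length and GC was subtracted. Ddx3y, which is Y-linked, had 18.8 to 25.4 FPKM, and Xist at most 0.134 FPKM, as in male tissue. The targeted gene Tbx18 had 3.47 FPKM in wild type against 2.50 in mutant UGS at the earlier stage, and 3.16 against 2.93 FPKM at the later. The FPKM do not separate the GFP allele's transcript from that of an intact gene.

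Of the 8 members, 6 reached 1 FPKM in at least 1 library. Pitx1 had the highest level of the set in all 4 libraries (2.85 to 9.57 FPKM) and Irx2 the next highest (1.95 to 4.64 FPKM). In E18.5 wild type their counting intervals overlapped (Pitx1 2.45 to 3.29, Irx2 2.05 to 2.79 FPKM), and in the other 3 libraries they did not. Sim2 was the third highest in E16.5 wild type, with an interval that overlapped that of Irx1, and stood below Irx1, Irx3 and Irx5 in the other 3 libraries. In E18.5 wild type the neighbours Irx5, Irx1, Irx3 and Sim2 overlapped in their intervals one after the other, so their order is not resolved there.

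**Figure D1:**
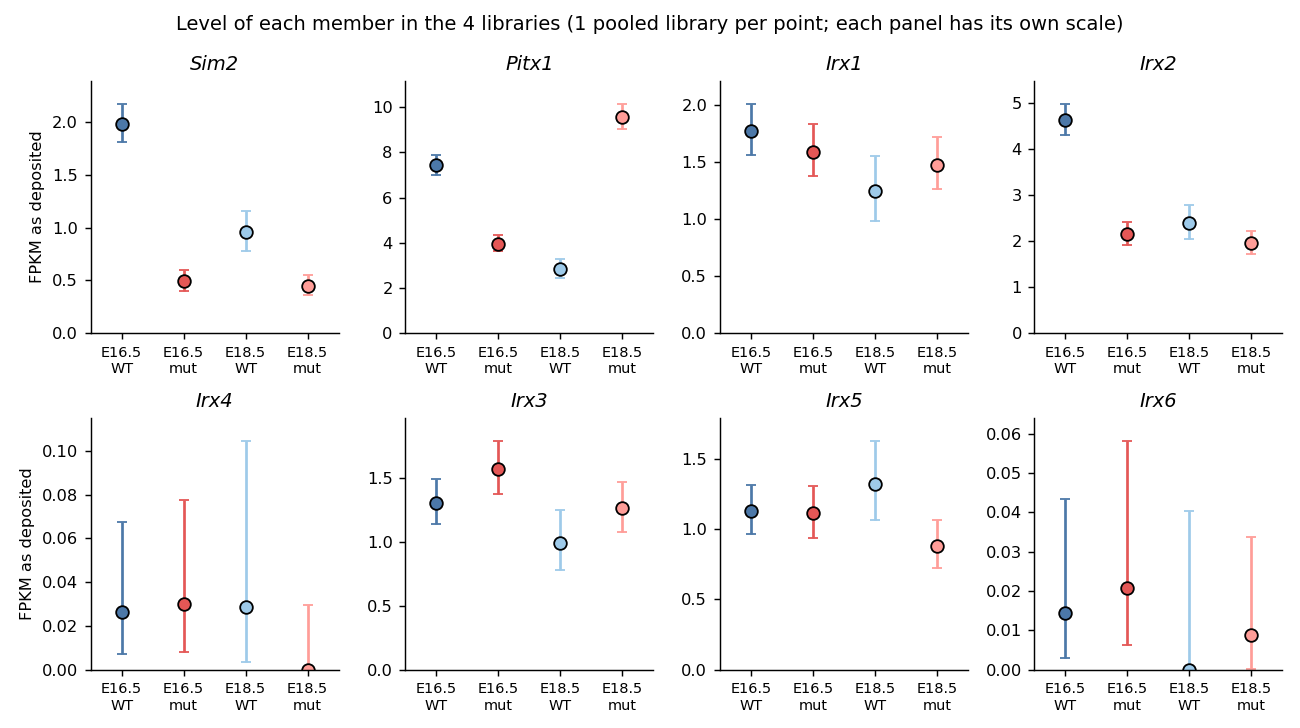
Deposited FPKM of the 8 genes (vertical axes, each with its own scale from 0) in the 4 libraries (horizontal axes; WT, wild type; mut, Tbx18Gfp/Gfp), with 95% counting intervals as bars. Sim2 and Irx2 are highest in E16.5 wild type, Pitx1 is highest in E18.5 mutant at 9.57 FPKM, and Irx4 and Irx6 reach at most 0.0301 FPKM.

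Sim2 had 1.99 FPKM in E16.5 wild type (about 481 reads), 0.493 in E16.5 mutant (104 reads), 0.956 in E18.5 wild type (105 reads) and 0.447 in E18.5 mutant (89 reads). E16.5 wild type was the high library, with an interval from 1.81 to 2.17 FPKM, and both mutant libraries were the lowest and overlapped each other. In whole UGS, fewer cells of a type and less RNA per cell cannot be told apart. The E16.5 mutant library was 4.03-fold lower than wild type, a log2 ratio of -2.01 (counting interval -2.33 to -1.70) and the 25th lowest of the 14761 genes that reached 1 FPKM in at least 1 of the libraries compared. At E18.5 the log2 ratio was -1.10 (-1.51 to -0.67), or -1.39 relative to the median and -1.77 after the length and GC trend was subtracted, with Sim2 under 1 FPKM in both libraries. Sim2 was thus lower in the mutant at both stages under each scaling given, although its E18.5 level lay below the 1 FPKM needed to enter the counts. In the table, the Sim2 locus spans 263134 bases of chromosome 16 (94085505 to 94348638), against 41929 bases for the RefSeq gene on GRCm38. No other row overlaps that locus. The read numbers rest on a transcript of 3999 bases, and how the longer locus enters the FPKM was not tested.

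Irx2, the most abundant Iroquois gene here, had 4.64 FPKM in E16.5 wild type, 2.15 in E16.5 mutant, 2.40 in E18.5 wild type and 1.95 in E18.5 mutant. As for Sim2, E16.5 wild type stood above the rest, and the intervals of the other 3 libraries overlapped one another. The E16.5 mutant library was 2.15-fold lower than wild type, with a log2 ratio of -1.11 (-1.31 to -0.91). At E18.5 the log2 ratio was -0.30 (-0.58 to -0.00), -0.59 relative to the median and -0.97 with the trend subtracted, so its size depended on the scaling while its sign did not. Irx2 made up 52.2% of the summed FPKM of the 6 Iroquois genes in E16.5 wild type, 33.2% in E16.5 mutant, 40.1% in E18.5 wild type and 35.0% in E18.5 mutant. The sums were 8.89, 6.49, 5.99 and 5.58 FPKM, and between the E16.5 libraries the sum differed by no more than Irx2 alone did.

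Pitx1 had 7.44 FPKM in E16.5 wild type (about 1064 reads), 3.96 in E16.5 mutant (494 reads), 2.85 in E18.5 wild type (185 reads) and 9.57 in E18.5 mutant (1123 reads). No counting intervals of the 4 libraries overlapped, and the mutant was the lower library at E16.5 and the higher at E18.5. At E16.5 the mutant level was 1.88-fold lower (log2 ratio -0.91, -1.06 to -0.75). The E18.5 mutant level was 3.36-fold higher, with a log2 ratio of 1.75 (1.52 to 1.98), above 97.1% of the genes compared. Relative to the median the E18.5 ratio was 1.46, and with the length and GC trend subtracted it was 0.65, above 89.2% of genes. The trend at the length and GC content (65.8%) of the Pitx1 transcript was 1.09. The comparison of the mutant libraries with each other does not use E18.5 wild type, but it shares the E16.5 mutant library with the difference that chose the set. There Pitx1 was 2.42-fold higher at E18.5 than at E16.5, a log2 ratio of 1.27 (1.12 to 1.43) that was the 132nd highest of 14713 genes, and it was 1.45 with the trend subtracted. In wild type Pitx1 was 2.61-fold lower at E18.5 than at E16.5 (log2 ratio -1.38), or -1.05 relative to the median and -0.16 with the trend subtracted.

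Irx1, Irx3 and Irx5 had between 0.880 and 1.78 FPKM in every library. Irx1, the neighbour of Irx2 in its cluster, had 1.78, 1.59, 1.25 and 1.48 FPKM in E16.5 wild type, E16.5 mutant, E18.5 wild type and E18.5 mutant. Irx3 had 1.31, 1.57, 0.991 and 1.26 FPKM in the same order. Irx5, which lies beside Irx3 in the other cluster, had 1.13, 1.12, 1.32 and 0.880 FPKM. For each of the 3 genes the E16.5 counting interval of the log2 ratio included 0: -0.16 (-0.43 to 0.13) for Irx1, 0.27 (-0.01 to 0.54) for Irx3 and -0.02 (-0.35 to 0.31) for Irx5. At E18.5, Irx5 lay just past 1.5-fold lower in the mutant, with a log2 ratio of -0.59 (-1.01 to -0.17), -0.87 relative to the median and -1.65 with the trend subtracted. The directions of Irx1 and Irx3 at E18.5 were not settled, since Irx1 went from 0.24 (-0.15 to 0.65) to -0.05 relative to the median and -0.68 with the trend subtracted, and Irx3 from 0.35 (-0.05 to 0.77) to 0.06 and -0.59.

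Irx4, known as a factor of the heart ventricles, had 0.0262, 0.0301 and 0.0288 FPKM in E16.5 wild type, E16.5 mutant and E18.5 wild type and was listed at 0 in E18.5 mutant. These values correspond to about 4, 4, 2 and 0 reads. Irx6 had 0.0144, 0.0207 and 0.00881 FPKM in E16.5 wild type, E16.5 mutant and E18.5 mutant, about 3, 4 and 1 reads, and was listed at 0 in E18.5 wild type. Both genes were at or near the 3 reads taken as the floor, which corresponds to 0.0197 to 0.0435 FPKM for Irx4 and 0.0149 to 0.0327 FPKM for Irx6, so no fold is given. Each cluster therefore held a pair of genes at about 1 FPKM or above and 1 gene that was barely detected at this depth.

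**Figure D2:**
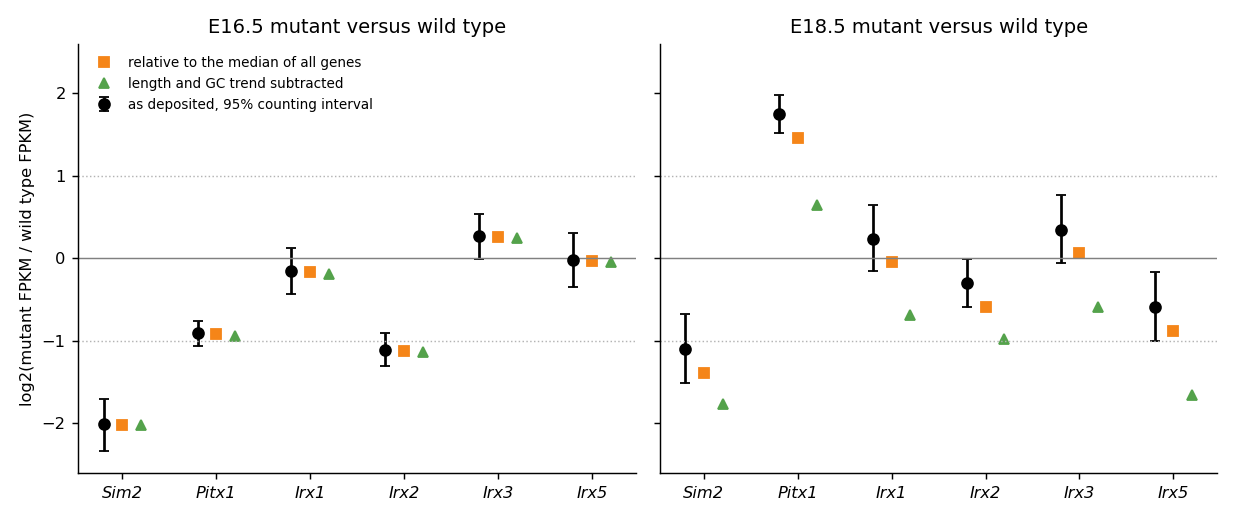
Log2 ratio of mutant to wild type FPKM (vertical axis) of the 6 genes that reached 1 FPKM in a library, at E16.5 (left) and E18.5 (right); circles are deposited values with 95% counting intervals, squares have the all-gene median subtracted, and triangles have the length and GC trend subtracted. The 3 values of a gene nearly coincide at E16.5, while at E18.5 Pitx1 goes from 1.75 to 0.65 and Irx5 from -0.59 to -1.65.

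Over the whole table at E16.5, 173 of 14761 genes (1.17%) were at least 2-fold lower in the mutant, and 2 of the 6 measured members, Sim2 and Irx2, were among them. At 1.5-fold the count was 401 genes (2.72%) and 3 of the 6 members, now with Pitx1, and none was 1.5-fold higher, against 1.44%. These 3 genes chose the set, so the shares are set side by side only. At E18.5, 1 of the 5 members that could be counted, Pitx1, was at least 2-fold higher, against 15.1% of 14733 genes, and no other was 1.5-fold higher, against 33.2%. None of the 5 was at least 2-fold lower, against 2.89% of genes, and 1 of the 5, Irx5, was at least 1.5-fold lower, against 7.6%. The E18.5 counts of members changed from 2 past 1.5-fold to 5 after the length and GC trend was subtracted. Of these, Pitx1 was higher and Irx1, Irx2, Irx3 and Irx5 were lower, with Irx3 barely past 1.5-fold. The share of all genes past 1.5-fold after that step is not given here, so nothing is read from this count. Of the genes 2-fold lower at E16.5, 17 were also 2-fold lower at E18.5. That is 9.83% of the former, against 2.89% over all genes, and 3.99% of the latter, against 1.17% over all genes. The pattern of Pitx1, at least 1.5-fold lower at E16.5 and 2-fold higher at E18.5, was shared by 60 genes, 15.0% of the 401 and 2.69% of the 2231 genes. These shares are near the 15.1% and 2.72% over all genes, so the overlap is no larger than those shares alone would give.

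The stage comparisons share the libraries of the genotype comparisons, so they are not independent of them. The set was chosen by the E16.5 values of Sim2, Irx2 and Pitx1. Their changes with stage start from those same values, so they are described and nothing is read from their counts. In wild type, 3 of the 6 measured members, Sim2, Pitx1 and Irx2, were at least 1.5-fold lower at E18.5 than at E16.5, against 35.9% of 14807 genes. Their log2 ratios were -1.05, -1.38 and -0.95 as deposited and -0.72, -1.05 and -0.62 relative to the median, and all 3 also stayed past 1.5-fold with equal sums or upper quartiles. With the trend subtracted they were -0.25, -0.16 and -0.19, inside 1.5-fold. Irx1 went from -0.51 to -0.18 relative to the median and 0.53 with the trend subtracted, and Irx3 from -0.40 to -0.07 and 0.66, so the signs of both turned under the trend alone. Irx5 went from 0.23 to 0.56 and 1.43. In the mutant, 1 of the 5 members, Pitx1, was at least 2-fold higher at E18.5, against 1.35% of 14713 genes. The mutant log2 ratios of Irx1, Irx2, Irx3 and Irx5 were -0.11, -0.14, -0.32 and -0.34, and that of Sim2, under 1 FPKM in both, was -0.14. Between the mutant libraries, then, Pitx1 moved while the other measured members stayed within 1.5-fold.

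**Figure D3:**
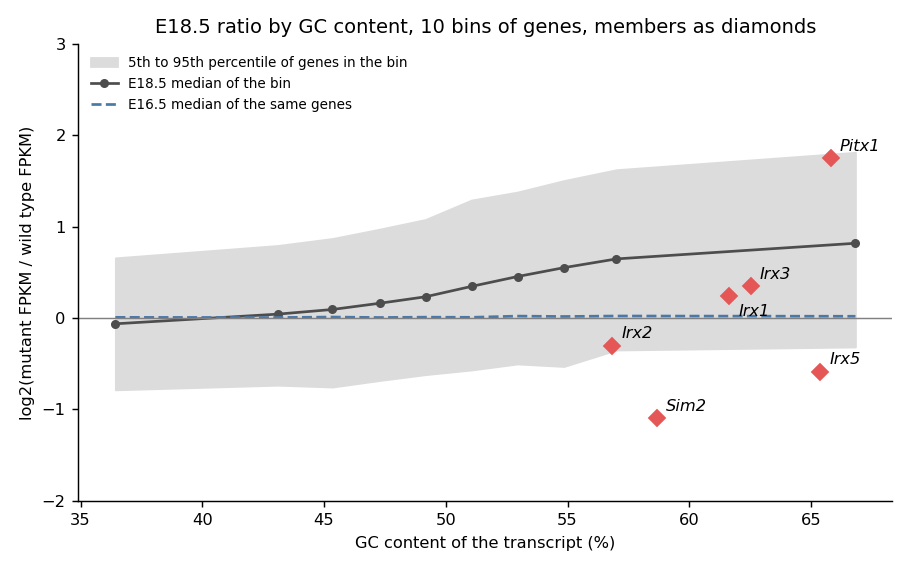
Log2 ratio of mutant to wild type FPKM at E18.5 (vertical axis) against transcript GC content in percent (horizontal axis); the solid line joins the medians of 10 bins of genes, the grey band spans their 5th to 95th percentiles, the dashed line is the E16.5 median of the same bins, and diamonds are the 6 measured members. The E18.5 median rises to 0.82 in the highest bin, Pitx1 lies above that line, and Irx1, Irx2, Irx3, Irx5 and Sim2 lie below it.

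Relatives of each member were read from lists of genes with the same protein family or a shared role. Pitx3, a paralog of Pitx1, had ratios of the same sign as Pitx1 at both stages in the deposited values. It is known from dopaminergic neurons, lens and muscle, and it went from 3.02 FPKM in wild type to 0.894 in mutant at E16.5 (log2 ratio -1.76) and from 0.502 to 1.41 FPKM at E18.5 (1.49). Tbx4, the hindlimb T-box gene, went from 4.83 to 2.36 FPKM at E16.5 (-1.03) and from 2.97 to 4.07 FPKM at E18.5 (0.46). Tbx5, the forelimb T-box gene, went from 3.39 to 1.39 FPKM at E16.5 (-1.29) and from 2.51 to 2.09 FPKM at E18.5 (-0.26), so it was lower in the mutant at both stages. Relative to the median, the E18.5 log2 ratios were 1.20 for Pitx3, 0.17 for Tbx4 and -0.55 for Tbx5. With the length and GC trend subtracted, they were 0.18 for Pitx3, -0.05 for Tbx4, whose sign turned, and -0.58 for Tbx5. Of the 16 listed PITX relatives and limb factors, 8 had at least 1 FPKM in a library at each stage. At E16.5, 3 were at least 2-fold lower (1.17% of all genes), 4 at least 1.5-fold lower (2.72%) and none 1.5-fold higher (1.44%), with a median log2 ratio of -0.52 against 0.01 over all genes. At E18.5, 2 were at least 1.5-fold higher and none lower, which is no larger a share than over all genes (33.2% and 7.6%), with a median of 0.19 against 0.31, and with the trend subtracted 1 of the 8 passed 1.5-fold.

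**Figure D4:**
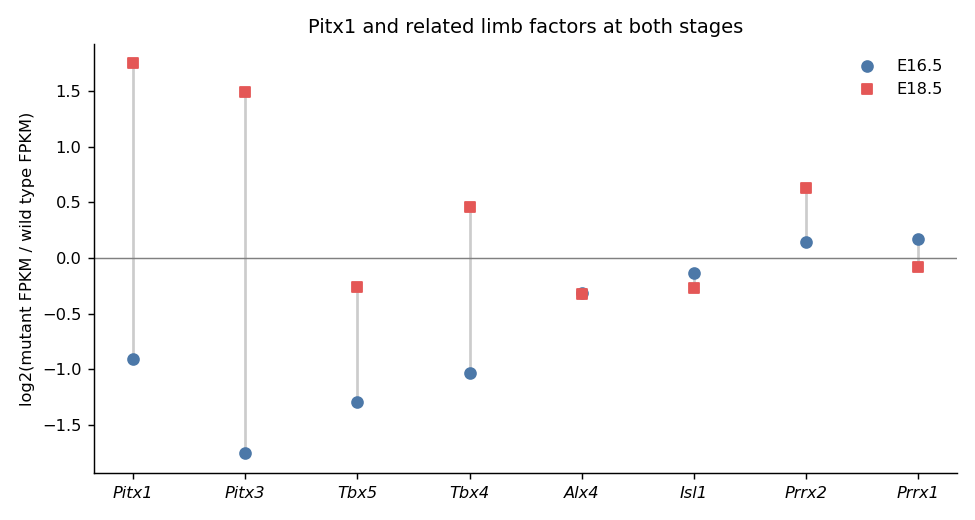
Log2 ratio of mutant to wild type FPKM (vertical axis) of Pitx1 and 7 measured PITX relatives and limb factors (horizontal axis) at E16.5 (circles) and E18.5 (squares), deposited values. Pitx1, Pitx3 and Tbx4 lie below 0 at E16.5 and above 0 at E18.5, where Tbx4 turns to -0.05 once the length and GC trend is subtracted, while Tbx5 lies below 0 at both stages.

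The bHLH-PAS relatives and partners of SIM2 were mostly at similar levels in the E16.5 libraries, as most genes were. Of 18 listed genes, 14 had at least 1 FPKM in a library at E16.5, none was past 1.5-fold, where 2.72% of all genes were lower and 1.44% higher, and the median log2 ratio was -0.03. Arnt, the partner of SIM2, had 21.8, 23.4, 22.8 and 22.0 FPKM in E16.5 wild type, E16.5 mutant, E18.5 wild type and E18.5 mutant. Hif1a, the oxygen-regulated factor of the family, had 35.7, 35.8, 47.1 and 36.3 FPKM, and Hif3a had 19.5, 17.1, 20.0 and 17.8 FPKM. Sim1, the paralog of Sim2, stayed at 0.229 to 0.333 FPKM. At E18.5, 1 of 15 genes was at least 1.5-fold lower and 1 higher (7.6% and 33.2% of all genes), with a median of -0.17 against 0.31 over all genes. The TALE homeobox relatives of the Iroquois genes, which include cofactors of HOX proteins, were all 12 measured, and none was past 1.5-fold at E16.5 (median 0.01). Meis2, 1 of the MEIS cofactors, had 43.8, 45.0, 66.3 and 40.9 FPKM. At E18.5, Pknox1 was 2-fold higher (5.46 and 11.5 FPKM, log2 ratio 1.08, 0.79 relative to the median and 0.86 with the trend subtracted), 3 of the 12 were past 1.5-fold in each direction, against 33.2% of all genes higher and 7.6% lower, and the median was -0.14 against 0.31.

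Genes that lie within 1000000 bases of a member were read to see whether the differences ran through the loci. There were 108 such rows, 66 of them with at least 1 FPKM in a library. At E16.5 none was past 2-fold in either direction, where 1.17% of all genes were lower and 0.481% higher. Their median log2 ratio was 0.03, against 0.01 over all genes. The row nearest to Irx2, D430050G20, ends 413 bases before the Irx2 locus in the table and had 1.08 and 0.647 FPKM in E16.5 wild type and mutant (log2 ratio -0.73), then 0.825 and 0.613 FPKM in the E18.5 pair (-0.43, or -0.72 relative to the median). It was 1 of 4 neighbours, among the 66, at least 1.5-fold lower at E16.5, against 2.72% of all genes. The others were Tppp, Capns2 and Unc5a, which lie 739798, 221314 and 819035 bases from the nearest member. The kit was stranded and Tophat was run at its default options, and whether strand was used in assigning reads to rows this close is not given in the sources used here. Hlcs, 2273 bases from the Sim2 locus, had 2.98 and 2.63 FPKM at E16.5 (-0.18), and Pcbd2, 48223 bases from Pitx1, had 10.5 and 13.6 FPKM (0.38). Fto, the gene next to Irx3, had 27.4 to 32.5 FPKM in all 4 libraries. At E18.5, 11 neighbours were at least 2-fold higher and 1 lower, with a median of 0.39, near the 15.1% and 2.89% of all genes and their median of 0.31.

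The genes nearest in pattern were those with the smallest distance between centred log2(FPKM + 0.1) profiles over the 4 libraries, among 13644 genes with at least 1 FPKM in each. For Irx2 they were Kbtbd10 (distance 0.059), Sst (0.064) and Cacng1 (0.11). For Pitx1 they were Actc1 (0.26), Trpv2 (0.26) and Slc2a4 (0.29), and for Sim2 they were Arg1 (0.42), Ttn (0.43) and Fndc3c1 (0.47). The nearest gene to Sim2 was thus further away than that of any other member searched. Sim2 itself had 0.493, 0.956 and 0.447 FPKM in E16.5 mutant, E18.5 wild type and E18.5 mutant, under the minimum set for the genes searched. Distances also grow with the size of a profile's differences, so the distance of Sim2 does not show that its profile is unusual. Irx1 was nearest to Hlcs (0.021), Inadl and Znrf2, Irx3 to Ctso (0.029), Pmf1 and 2010015L04Rik, and Irx5 to H2afy2 (0.023), AA415398 and Gm9958. As an example, Kbtbd10 had 17.2, 8.27, 9.53 and 7.74 FPKM in E16.5 wild type, E16.5 mutant, E18.5 wild type and E18.5 mutant, and Trpv2 had 5.39, 3.69, 2.42 and 8.23 FPKM. With 4 libraries a close profile describes these libraries only.

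Markers of several cell types, those of the UGS among them, were read in the same libraries, and their directions at E16.5 differed between cell types. Sim2, Irx2 and Pitx1 were chosen for their lower E16.5 mutant levels, so a shared direction at that stage is a description only. The 12 skeletal muscle markers summed to 850 FPKM in E16.5 wild type, 356 in E16.5 mutant, 433 in E18.5 wild type and 799 in E18.5 mutant, and none was at 0. Acta1 alone had 231, 81.8, 110 and 455 FPKM in that order, so most of the E18.5 difference in the sum was Acta1. At E16.5 all 11 skeletal muscle markers with at least 1 FPKM were at least 2-fold lower in the mutant, with log2 ratios from -1.56 (Ckm) to -1.11 (Mylpf) and a median of -1.21. The myogenic factor gene Myod1, 1 of the 11, went from 11.4 to 4.50 FPKM at E16.5 and from 3.34 to 3.63 FPKM at E18.5. Its E18.5 log2 ratio was 0.12 as deposited, -0.17 relative to the median and -0.74 with the trend subtracted, so that direction was not settled. At E18.5, 7 of the 11 were lower and 4 higher as deposited, with a median log2 ratio of -0.13. The number higher was 3 relative to the median and 2 with the trend subtracted. Acta1 and Ckm were at least 2-fold higher, also with the trend subtracted (1.24 and 1.12). The 8 smooth muscle markers were all lower in the mutant at E16.5 and all higher at E18.5 (7 of 8 with the trend subtracted), with sums of 1092, 577, 1285 and 3519 FPKM. Heart markers summed to 65.2, 29.5, 96.6 and 149 FPKM, nearly all of it Tnnt2 (61.0, 24.6, 91.2 and 143 FPKM). The E18.5 log2 ratio of Tnnt2 was 0.65 as deposited, 0.36 relative to the median and -0.08 with the trend subtracted. Of the 3 heart markers with at least 1 FPKM at E16.5, 2 were lower in the mutant, Tnnt2 and Myh6 (1.18 and 0.987 FPKM). Tnni3 (1.90 and 2.30 FPKM) was higher. Under 1 FPKM in both E16.5 libraries, Myl7 (0.749 and 0.525 FPKM) was lower, and Myl2 (0.224 and 0.900 FPKM) and Nppa (0.127 and 0.146 FPKM) were higher. Neuron and glia markers, 7 of 8 of them lower at E16.5, summed to 333, 276, 235 and 282 FPKM. The 14 epithelial markers of the tissue summed to 1263, 989, 997 and 1224 FPKM, with 11 lower at E16.5. At E18.5, 9 of the 14 were higher as deposited, 4 relative to the median and 2 with the trend subtracted. The 10 mesenchymal markers summed to 2898, 3050, 3101 and 3559 FPKM, with 3 lower at E16.5 and, at E18.5, 6 higher as deposited, 3 relative to the median and 2 with the trend subtracted. Of 6 epidermal markers measured at E16.5, 5 were lower (sums of 49.1, 40.6, 47.2 and 41.1 FPKM), and all 8 kidney markers stayed under 1 FPKM. Cartilage and bone markers summed to 14.4 to 20.0 FPKM. Most of that was Sox9 (8.26 to 16.7 FPKM), which the paper names as a gene with a role in prostate development. The part of these cell types in the levels of Sim2, Irx2 and Pitx1 was not tested.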

How the data were processed

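RNA-Seq was made from whole UGS, 1 library per genotype and stage. Per the labels, total RNA went into a stranded mRNA kit, and the submitters' processing notes name CASAVA 1.8.2, Trimmomatic 0.30, TopHat2 2.1.0 and Cufflinks 2.2.1. The authors deposited FPKM from Cufflinks, not counts, 1 column a library and 25819 rows. The genome build is not given in the sources used here, and the deposited loci differ from GRCm38, so primers and promoters alone carry GRCm38 positions.

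Ratios of FPKM were formed for genes that reached 1 FPKM in at least 1 of the libraries compared and counted at 2-fold and 1.5-fold, without a pseudocount. Depth was estimated from 15 to 27 single-exon genes in a library, each with the FPKM of 1 read. Members' reads were estimated from GENCODE M21 transcript lengths, and ratios were given exact conditional (Clopper-Pearson) 95% intervals, which cover counting error only. A lowess trend (span 0.3) on length and then on GC was subtracted as an alternative. The others were equal library sums, centring on the median, equal upper quartiles, 3 pseudocounts, no filter, a minimum of 5 FPKM, a minimum of 1 FPKM required in both, and repeated symbols left out.

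The members and lists were chosen with earlier results of these data known. Named genes were all members, list genes past 2-fold with at least 1 FPKM in the lower library or else the 3 most abundant of a list, the 3 genes nearest in pattern to each member, Tbx18, Ddx3y and the markers, and not all are printed, since some items are not reported here. D430050G20, Sim1, Hlcs, Pcbd2, Fto, Pitx3, Tppp, Capns2 and Unc5a were named after their values were seen. The steps were tested on simulated data. The software was matplotlib 3.10.9, statsmodels 0.14.6, scipy 1.17.1, pandas 2.3.3 and numpy 2.4.6 under Python 3.11.15.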

Additional observations from a re-analysis of the deposited data

Results flagged for a closer look

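Pitx1 was lower in the mutant library at E16.5 and higher at E18.5. In the deposited values its log2 ratio at E18.5 exceeded that at E16.5 by 2.656. With the length and GC trend subtracted, the Pitx1 ratios were -0.94 at E16.5 and 0.65 at E18.5, which lie closer together. The lower E16.5 mutant level of Pitx1 was also among the values that chose the set. Irx1 had deposited ratios of opposite sign at the stages as well, with a difference of 0.3992, but its counting interval included 0 at both stages and its E18.5 sign turned relative to the median. With 1 library per genotype and stage, neither difference was tested.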

How the results depend on the processing

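No paired analysis was possible because each genotype and stage had 1 library. Among single genes 0 of the log2 ratios past 1.5-fold changed sign. Some smaller ratios did with the trend subtracted: those of Irx1 and Irx3 at E18.5 and in the wild type stage comparison, and that of Irx1 in the mutant stage comparison. Of the summary counts, 106 stayed within 1.5 times of the reported ones while 38 did not. The members past 1.5-fold went from 3 to 1 at E16.5 and in the wild type stage comparison with a minimum of 5 FPKM, and from 1 to 3 in the mutant stage comparison without a filter. At E18.5 they went from 2 to 4 with equal sums, 5 without a filter, 5 with the length and GC trend subtracted, and 1 with any of the pseudocounts, with at least 5 FPKM or with 1 FPKM in both. Over all genes, the 2-fold counts of 244 (E16.5), 2657 (E18.5), 2885 (wild type stages) and 282 (mutant stages) became 113, 1637, 1774 and 161 with a pseudocount of 1, 2601, 5680, 6241 and 2641 without a filter, and 98, 1763, 1888 and 141 with at least 5 FPKM. With 1 FPKM in both they became 138 at E16.5 and 153 for the mutant stages, and with the trend subtracted 1213 at E18.5 and 1163 for the wild type stages. Past 1.5-fold at E18.5, 2 bHLH-PAS genes became 8 with equal sums, 5 centred or with equal upper quartiles, and 1 and 0 with pseudocounts of 0.1 and 1. The 2 PITX relatives became 4 with equal sums and 1 with equal upper quartiles, a pseudocount of 1 or the trend subtracted. Neighbouring genes went from 4 to 0 at E16.5 with a pseudocount of 1, and from 25 to 14 at E18.5 with the trend subtracted. Unfiltered counts hold genes with few reads, and pseudocounts shrink low ratios by construction. The cause of the other changes was not tested. Depth limits Irx4 and Irx6, with 4 reads or fewer in each library, and Sim2 at E18.5, with 105 and 89 reads.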
